A study of Drosophila melanogaster with 2 samples.

Results

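The regions described here are 482 binding peaks of a Worniu-eGFP fusion that lay near the starts of autosomal protein-coding genes with no head-to-head partner, out of 3064 peaks in the conservative list of the study. Binding was mapped by chromatin immunoprecipitation and sequencing (ChIP-seq) with an anti-GFP antibody in whole Drosophila melanogaster embryos of the wor-GFP strain, collected at 0-18 hours of development, in 1 group of 2 biological replicates. Both replicates carried the transgenic fusion, and no embryos without it and no control library are analysed here. Whole embryos were used, so chromatin of every embryonic tissue was pooled, and fewer cells with a bound site cannot be told apart from less binding per cell. A member is a peak on 2L, 2R, 3L, 3R or 4 whose summit lay within 500 bp of an annotated start of a protein-coding transcript, where none of those starts was paired with an opposite-strand protein-coding start pointing away from it within 1000 bp. Of 2428 autosomal peaks 973 had a summit within 500 bp of a start, 528 of these had no paired start, and 46 were dropped because they overlapped a stronger peak. The members belonged to 465 genes. They were compared with 409 peaks at divergent (paired) autosomal promoters, with 1309 autosomal peaks more than 500 bp from any protein-coding start, and with 146 peaks at one-directional promoters of the X chromosome. The conservative list is filtered by the irreproducible discovery rate (IDR), which compares peak ranks between replicates. Signal denotes the deposited value of each peak as the authors computed it, and it is not comparable between the lists of the single replicates and those of both replicates. The ranked list of both replicates gives the peaks of the conservative list the same signals.

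Worniu is a zinc finger protein of the Snail family, and in the fly embryo it is known from neuroblasts, the neural stem cells, which it helps to keep dividing. Snail family proteins bind an E-box with the core CAGGTG and are known mainly as repressors. A one-directional promoter serves a single gene and is flanked upstream by whatever sequence separates that gene from its neighbour, whereas a divergent promoter serves a pair of genes on opposite strands. Near fly promoters, GAGA factor (encoded by Trl) binds GAGAG repeats, DREF and BEAF-32 bind elements that hold CGATA, and the TATA box TATAAA lies just upstream of the start of a subset of genes.

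The sequences at the summits of members were rich in A and T. The first set shows the 101 bp centred on the summit for 5 of the 20 strongest members, on the dm6 assembly and 5′ to 3′ on the strand of the gene. The 5 are not the strongest in strict order, since px, Fkbp14 and Tina-1, each stronger than some of them, are not shown. Capitals mark TTAAAA and AAATAT in either orientation. These runs were picked from all runs of similar length after their frequencies were seen, so the marks are a description only. All 5 windows of the first set hold a mark, but windows that skip stronger members do not show how often strong members hold one. Over all member windows TTAAAA was in 44.2% and AAATAT in 43.0%, each counted alone.
CG14100 (chr3L:19590568-19590668, minus strand): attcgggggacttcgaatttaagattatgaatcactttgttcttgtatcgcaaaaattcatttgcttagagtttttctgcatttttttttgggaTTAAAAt
CG18549 (chr3R:12449115-12449215, plus strand): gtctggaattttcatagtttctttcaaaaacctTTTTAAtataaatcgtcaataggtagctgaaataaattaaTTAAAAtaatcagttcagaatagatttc
CG31145 (chr3R:23669799-23669899, minus strand): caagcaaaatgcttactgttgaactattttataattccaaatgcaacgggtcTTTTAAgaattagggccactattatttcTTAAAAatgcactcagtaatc
RluA-1 (chr2L:10474473-10474573, minus strand): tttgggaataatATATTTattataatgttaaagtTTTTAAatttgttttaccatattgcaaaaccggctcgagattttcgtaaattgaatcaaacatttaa
gish (chr3R:16280683-16280783, plus strand): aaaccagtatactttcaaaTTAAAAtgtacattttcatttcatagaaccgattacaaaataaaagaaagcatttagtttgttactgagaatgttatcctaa
The next set shows the members of lowest signal with the same marks.
sick (chr2L:19895692-19895792, plus strand): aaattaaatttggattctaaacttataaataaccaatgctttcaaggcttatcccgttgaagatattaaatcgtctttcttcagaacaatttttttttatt
Sema5c (chr3L:12082144-12082244, minus strand): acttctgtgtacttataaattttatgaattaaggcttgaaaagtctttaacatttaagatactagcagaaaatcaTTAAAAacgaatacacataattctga
The third set shows members that did hold the Snail-type E-box, whose CAGGTG or its complement CACCTG is in capitals.
Samuel (chr2L:11057909-11058009, minus strand): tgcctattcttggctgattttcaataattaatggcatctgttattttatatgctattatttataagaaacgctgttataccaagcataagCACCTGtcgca
dco (chr3R:31061502-31061602, minus strand): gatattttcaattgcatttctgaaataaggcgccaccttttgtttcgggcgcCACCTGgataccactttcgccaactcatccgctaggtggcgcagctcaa
PAPLA1 (chr2L:8156908-8157008, minus strand): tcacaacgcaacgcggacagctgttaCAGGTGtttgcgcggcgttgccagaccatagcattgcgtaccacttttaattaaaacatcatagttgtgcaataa
The last set shows 201 bp at a pair of strong members, with GAGAG or its complement CTCTC in capitals, chosen after their values were seen because the elements lie at the flanks and not at the summit.
REPTOR (chr3R:24572566-24572766, minus strand): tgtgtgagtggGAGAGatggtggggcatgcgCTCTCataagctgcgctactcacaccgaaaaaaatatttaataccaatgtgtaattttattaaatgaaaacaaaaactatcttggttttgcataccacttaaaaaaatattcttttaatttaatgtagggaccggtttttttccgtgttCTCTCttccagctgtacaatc
Hsp27 (chr3L:9383791-9383991, plus strand): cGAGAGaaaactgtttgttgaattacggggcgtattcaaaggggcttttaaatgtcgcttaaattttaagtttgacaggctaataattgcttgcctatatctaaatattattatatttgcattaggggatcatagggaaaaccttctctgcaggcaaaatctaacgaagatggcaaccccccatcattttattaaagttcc

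Summits of members lay upstream of the start far more often than downstream. Of the 482 summits 432 (89.6%, 95% Wilson interval 86.6 to 92.0) were upstream of the nearest start, at a median of 195.5 bp over all members. The fullest 100-bp bin, from 200 to 100 bp upstream, held 150 summits, and the next, from 300 to 200 bp upstream, held 109. Within 100 bp of the start on either side lay 67 (13.9%). On the X chromosome 84.9% of one-directional promoter summits were upstream, at a median of 211 bp. At autosomal divergent promoters 338 of 409 summits (82.6%, interval 78.7 to 86.0) were upstream as well. Divergent promoter summits lay closer to a start, at a median of 106 bp upstream with 165 of 409 (40.3%) within 100 bp, and the limit on the pair itself bounds how far such a summit can be from a start. By arm the share was alike, with 91.0% of the 111 summits upstream on 2L, 86.7% of 120 on 2R, 86.2% of 116 on 3L and 94.0% of 133 on 3R. Chromosome 4 held 2 members, both upstream. By annotation 227 summits (47.1%) were intergenic, 191 (39.6%) lay in an intron, 37 in a 5′ UTR, 14 in a 3′ UTR, 11 in a non-coding exon and 2 in a coding exon.

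**Figure D1:**
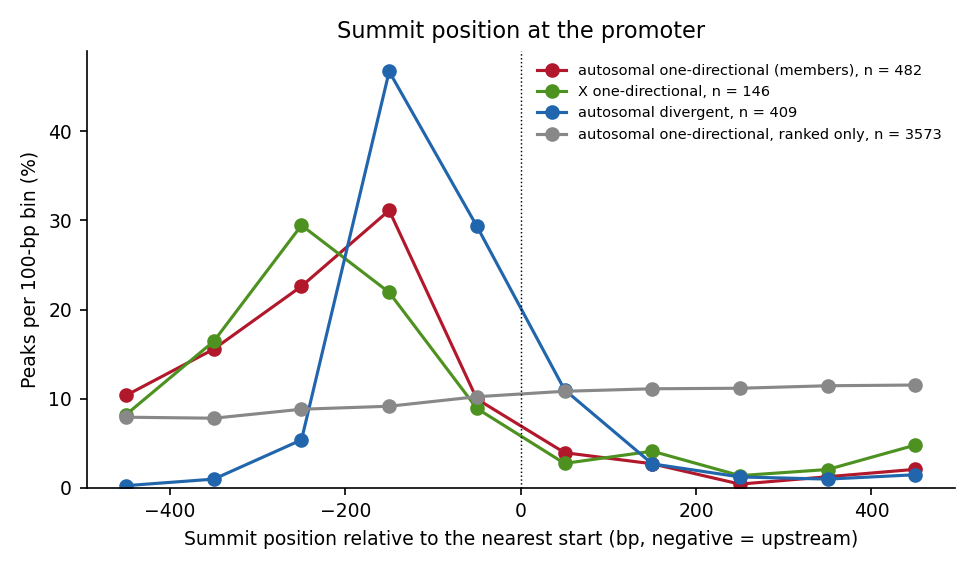
Share of peaks (y axis, percent) in 100-bp bins of the distance from summit to nearest start (x axis, bp, negative upstream) for 482 members, 146 X one-directional and 409 autosomal divergent promoter peaks. The fourth line is 3573 autosomal one-directional promoter peaks of the ranked list outside the conservative list. Members peak from 200 to 100 bp upstream, where 150 of them lie, while the peaks outside the conservative list are spread over all bins.

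This position set the members apart from peaks outside the conservative list at promoters of the same kind. The longer ranked list made from both replicates held 3573 further peaks at autosomal one-directional promoters that did not overlap a peak of the conservative list. Of these 1569 (43.9%, interval 42.3 to 45.6) were upstream, and their median was 57 bp downstream of the start. The mean G+C at their summits was 46.4% ± 10.6 (SD over peaks), against 30.4% ± 8.80 at members, and 280 of them (7.84%) were at or under the members' mean. Their median signal was 31.7 (range 2.37 to 562) against 144.6 (58.5 to 1408) for members, so the ranges overlap. The 145 of them that were at least as strong as the weakest member had values between these, with 75.9% upstream (interval 68.3 to 82.1), a median of 133 bp upstream and a G+C of 36.8% ± 11.5. Signal and reproducibility separate the lists by construction, whereas position and base composition were not used to make them. These comparisons were added after the values were seen and are given without a test.

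G+C fell sharply at the summit of members and rose on both sides. In the 101 bp at the summit the mean was 30.4% ± 8.80, against 41.2% ± 10.4 in a window centred 500 bp upstream and 45.9% ± 9.16 in one centred 500 bp downstream, in the direction of the gene. At 352 of 482 members (73.0%) the summit was lower than both flanks. Windows 196 bp upstream of 10516 unpaired autosomal starts with no conservative summit within 500 bp had 38.4% ± 10.8, and 75 members (15.6%) were above that mean. Low G+C at the summit was not particular to these promoters, since the means were 29.5% at divergent promoters, 31.5% at peaks away from starts and 32.1% on the X. The lowest member had 10.9% and the highest 69.3%. TTAAAA was in 213 member windows (44.2%) and in 16.8% and 9.34% of the upstream and downstream flanks, and AAATAT in 207 (43.0%), 15.2% and 10.6%. At the starts without a peak the shares were 24.1% and 23.4%, and at divergent promoter peaks 47.7% and 42.5%. How the base composition affects recovery of fragments was not tested.

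**Figure D2:**
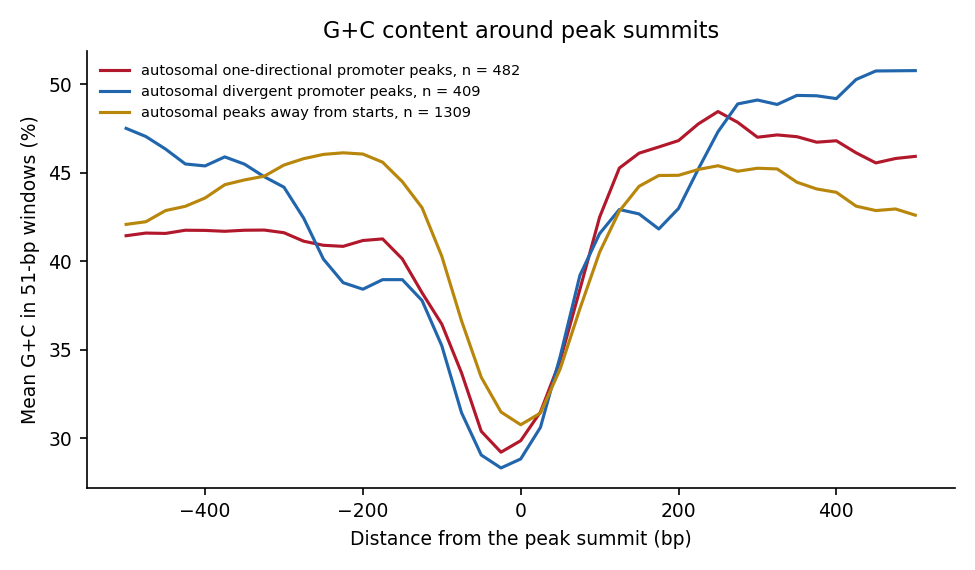
Mean G+C (y axis, percent, 51-bp windows) against distance from the summit (x axis, bp, in the direction of the nearest gene) for members, autosomal divergent promoter peaks and autosomal peaks away from starts. Each line dips within 100 bp of the summit, and the line of the members falls to 29.2% at 25 bp before the summit from 41.4% at 500 bp before it.

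Stronger members had lower G+C. In 4 groups of members of rising signal, of 120 or 121 peaks each, mean G+C was 33.95% ± 10.4 in the weakest, 30.1% ± 8.16 and 29.8% ± 8.15 in the middle groups and 27.6% ± 7.13 in the strongest. The spread within each group was larger than the steps between them. Grouping by the signal of replicate 1 alone gave 33.5% in the weakest group and 27.7% in the strongest, and replicate 2 alone gave 33.7% and 27.8%. Spearman's rho between signal and G+C over members was −0.227, and −0.223 and −0.218 with the signals of replicates 1 and 2, as a description over peaks that share libraries. This relation was not particular to members. With the signal of both replicates rho was −0.235 at divergent promoter peaks, −0.149 at peaks away from starts and −0.158 at X one-directional promoter peaks.

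**Figure D3:**
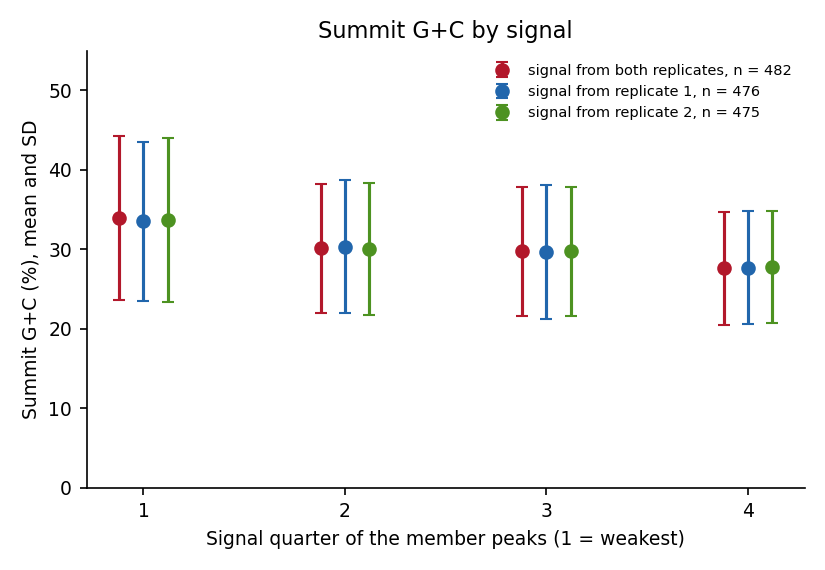
Mean G+C of the 101 bp at the summit (y axis, percent, bars are SD over peaks) in 4 equal groups of members by signal (x axis, 1 is weakest), with the signal taken from both replicates, from replicate 1 or from replicate 2. The mean falls from 33.95% in the weakest to 27.6% in the strongest group for the signal of both replicates.

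The strongest members were at genes of varied function. The highest was at chr3L:19590453-19590782, 94 bp upstream of the start of CG14100 (FBgn0036889). Its signal was 1408 in the list of both replicates, 793 in replicate 1 and 623 in replicate 2. The next was in an intron 198 bp upstream of a start of px (FBgn0003175), the wing vein gene plexus, at chr2R:22514146-22514453, with 1106, 542 and 563. CG18549 (FBgn0038053) had 1039, 538 and 517, with its summit 131 bp upstream. Fkbp14, which encodes a peptidyl-prolyl isomerase of the endoplasmic reticulum, had 978.5, 544 and 440.

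The other members among the 20 strongest had signals of 619 to 968. The signal of both replicates was 968 at Tina-1, 887 at CG31145, 847 at RluA-1, which encodes a pseudouridine synthase, and 834 at gish, a casein kinase 1 gamma. GstE13, a glutathione S-transferase gene, had 789 with its summit in the 5′ UTR, 68 bp downstream of the start, and was the exception among the top 20, of which 19 had the summit upstream. cu, the fly nocturnin, had 777, and its summit 309 bp upstream fell in an annotated 3′ UTR. eIF6, which encodes a factor that keeps ribosomal subunits apart, had 749, 413 in replicate 1 and 333 in replicate 2. The reticulon gene Rtnl1 had 734, the Musashi RNA-binding protein gene msi 709, MFS18 701 and the formin gene Fhos 666. CG11857 had 661, CG1888 650, CG1635 649.5, CG31808 640 and brwl 619. Each of the 20 was in both single-replicate thresholded lists.

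The weakest members were at the lower end of what each replicate could show. sick had a signal of 58.5, Sema5c, a semaphorin gene, 59.8, PGRP-LB, a peptidoglycan amidase gene of the immune response, 63.1, phu 65.0 and Gart, a purine synthesis gene, 65.4. sick and Sema5c had 38.8 and 45.0 in replicate 1 and no matching summit in the ranked list of replicate 2. Of these 5, Gart alone was in a single-replicate list, that of replicate 1.

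At 14 genes there was more than 1 member, with 31 members in all, and at 13 of these genes they lay at different starts. Rtnl1 had 4, with signals of 734, 306, 125 and 75.7, each 213 to 291 bp upstream of a different start. Svil, the supervillin gene, had 3, with 200.5, 97.2 and 90.5. The others had 2 each and were CAP, CG14968, CG5910, Dp, Eip63F-1, Mhcl, RapGAP1, SNF4Agamma, brwl, gro, gus and shep. At gro, which encodes the Groucho corepressor, the signals were 421 and 79.4, and their G+C was 30.7% and 53.5%. RapGAP1 had 484 and 199. At Dp both members flanked 1 start, 229 bp upstream with 235 and 416 bp downstream with 150. Peaks at 1 gene share their neighbourhood and are not independent.

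Members near the limits of the rule showed no single pattern of signal. Just inside the 500 bp limit were CG10479 at 500 bp with 478 and CG18135 at 498 bp with 83.4, and just outside it SERCA, the calcium pump gene, at 502 bp with 192 and CG10433 at 503 bp with 79.6. Just beyond the 1000 bp limit on pairs, and so members, were CG11961, whose pair spans 1007 bp, with 107 and the enolase gene Eno, 1015 bp, with 417. Left out as paired were Smg5, 984 bp, with 548 and Pax, 977 bp, with 189.

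Member signals ranged from 58.5 to 1408 with a median of 144.6, and 312 of 482 (64.7%) were above the median of the conservative list. That median, 115.1, was taken over all peaks on the arms before weaker overlapping peaks were dropped. The share of members is therefore read against the shares of the other sets, which had the same drop. The share was 68.0% at divergent promoters, a difference of −3.24 percentage points (95% interval −9.40 to 3.0, exact test, adjusted p = 0.591), and 61.6% at X one-directional promoters, a difference of 3.09 points (−5.59 to 12.2, adjusted p = 0.591). Neither difference passed the test. With a head-to-head limit of 500 bp the difference from divergent promoters was −11.1 points (−17.2 to −4.75, exact test, adjusted p = 0.0015), and with a start distance of 200 bp that from X promoters was 18.3 points (4.07 to 32.1, exact test, adjusted p = 0.027). Peaks away from starts were above the median less often, at 46.2%, a difference of 18.5 points (13.4 to 23.4, exact test, adjusted p = 2.055e-11). These are two-sided Fisher's exact tests over peaks with Benjamini-Hochberg adjustment over 6 tests, and peaks are not replicate embryos. The spread between embryo collections was not tested, and from the thresholded lists of replicate 2 and replicate 1 alone the difference from peaks away from starts was 16.6 and 14.5 points.

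The replicates ranked the members alike. Of the 482 members 470 had a summit within 100 bp in the ranked lists of both replicates, with a median signal of 77.2 in replicate 1 (range 29.9 to 793) and 72.7 in replicate 2 (31.7 to 623), and a Spearman's rho of 0.881 over peaks. Reproducible ranks were a condition for entry to the list, so this describes the selection. The thresholded list of replicate 1 held 381 members (79.1%) and that of replicate 2 held 336 (69.7%). Both held 304 (63.1%), replicate 1 alone 77, replicate 2 alone 32 and neither 69 (14.3%). The strongest in neither list were CG5535 with 116, CG4914 with 114 and CG34195 with 112. By signal group, 5 of 121, 63 of 120, 115 of 120 and 121 of 121 members were in both lists, from weakest to strongest. The share in both lists was 65.8% at divergent promoters (difference −2.70 points, −8.94 to 3.62, adjusted p = 0.591, and −7.92 points, adjusted p = 0.0258, with a head-to-head limit of 500 bp), 63.0% on the X (0.057 points, −8.55 to 9.15, adjusted p = 1) and 46.8% away from starts (16.3 points, 11.2 to 21.3, adjusted p = 2.42e-09), by the same exact tests. Among peaks above the median of the list the last difference was 3.25 points (−1.09 to 7.11, exact test, adjusted p = 0.435).

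**Figure D4:**
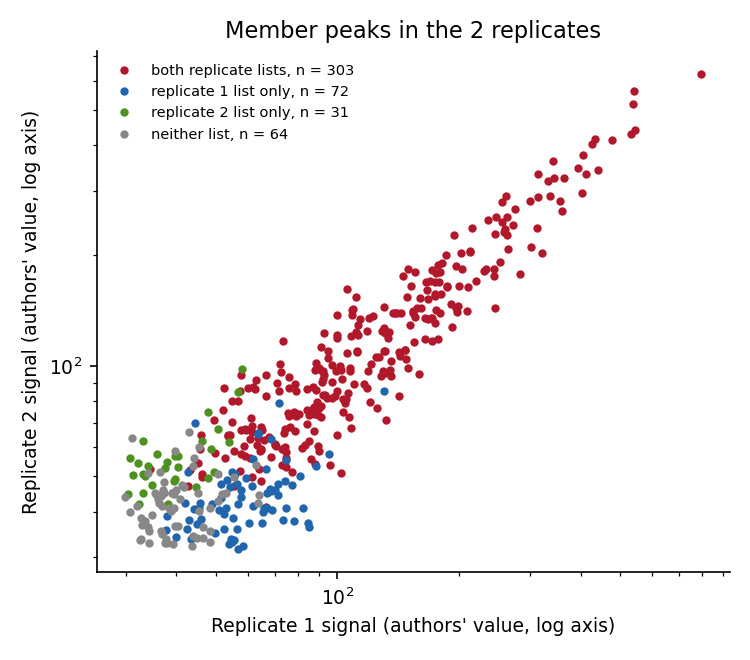
Signal of 470 members in replicate 1 (x axis, authors' value, log axis) and replicate 2 (y axis, same), each from its own ranked list and coloured by the thresholded lists that hold the peak. The strongest members are in both lists and lie at the upper right, while those in neither list lie near the lower end of both axes.

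The Snail-type E-box was rare at the summits. CAGGTG, in either orientation no more than 50 bp from the summit, was in 8 of 482 members (1.66%, interval 0.843 to 3.24), and the reversed control GTGGAC in 7 (1.45%). At divergent promoter peaks the E-box share was 2.69% (control 0.73%) and at peaks away from starts 1.99% (control 0.99%). In the windows upstream of unpaired starts without a peak the E-box share was 3.40% (control 1.99%). In the 3573 promoter peaks outside the conservative list, whose summits were richer in G and C, it was 6.07% (5.34 to 6.91) and the control 4.28% (3.67 to 5.0). The strongest members with the E-box were CG12316 with a signal of 165.5, Samuel with 139, Pde8 with 118, the casein kinase 1 gene dco with 114 and the kinase gene Srpk79D with 99.4. Each was weaker than the 20 strongest members by more than 3-fold.

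None of 15 motifs passed the test between members and either set of autosomal peaks within 50 bp. Fisher's exact test with adjustment over 15 motifs called 0 against divergent promoters, with 1 at an unadjusted p under 0.05, and 0 against peaks away from starts, with 0 at an unadjusted p. That 1 was the Twist-type E-box CATATG, in 4.56% of members and 1.71% of divergent promoter peaks (Fisher's exact test, adjusted p = 0.325; 3.77 points and 0.0138 without replicate 2, 3.85 points and 0.0287 with a pair limit of 2000 bp), with Tina-1, Rtnl1 and CG13631 the strongest members that held it. In a wider window of 100 bp on either side, 5 were called against divergent promoters. CATATG was in 8.30% of members and 2.69% of divergent peaks (exact test, adjusted p = 0.0013), and GAGAG in 22.6% and 12.96% (adjusted p = 0.0013). TATCGATA, the full DREF element, was lower in members, 2.49% against 8.31% (exact test, adjusted p = 0.0013), as were CGATA, 24.7% against 35.5% (adjusted p = 0.0020), and TATAAA, 39.2% against 50.6% (adjusted p = 0.0021). CGATA lies within TATCGATA, so these overlap. Divergent promoter summits lay closer to their starts, so a window of this width holds more of the promoter itself there, and the part of position in these differences was not tested. Against peaks away from starts, TATCGATA was called, 2.49% against 0.382% (exact test, adjusted p = 0.0030).

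For the other motifs within 50 bp, CAGCTG of the Ase and Ac type was in 13 members, led by CG9399, CG4497 and Hpf1, and CACGTG of the Myc type in 4, led by fok, Dysb and mam. GTGGGAA of the Su(H) type was in 1, Reg-5, and CACACACA in 2, CG13631 and Agpat4. TATCGATA was in 4, led by Alg3, CG1827 and eEF1gamma, and CGATA in 57, led by CG14100, CG11857 and E23. TATAAA was in 125 (25.9%), led by CG18549, Fkbp14 and CG31145, and a run of 8 A was in 41, led by CG14100, GstE13 and cu. CAGGTAG of the Zelda type, GGTCACACT of the M1BP type and AACCGGTT of the Grh type were in 0 of 482 members, and a count of 0 allows up to 0.622%.

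GAGAG was more frequent beside the summits than at them. It was in 38 members (7.88%) within 50 bp of the summit, led by CG1907, mrj, which encodes a DnaJ co-chaperone, and papi, a Tudor domain gene of the piRNA pathway. Read in 50-bp bins in the direction of the gene, it was in 3.53% of members just before the summit and 4.56% just after it, against 17.0% from 200 to 150 bp before it and 18.9% from 100 to 150 bp after it. Such a dip was not particular to GAGAG. In the same bins CAGCTG was in 1.25% and 1.45%, against 4.36% and 5.60%, whereas CATATG and TATAAA did not dip at the summit. Counted from the start, it was most frequent from 100 to 50 bp upstream, in 123 of 481 member starts (25.6%, interval 21.9 to 29.7), against 12.1% (11.5 to 12.7) of the 10516 starts without a peak. In the 101 bp at the summit GAGAG was less frequent in members (7.88%) than in the windows upstream of starts without a peak (14.6%), and within 100 bp the shares were 22.6% and 26.3%. Mean G+C in the 101-bp windows was 30.4% at members and 38.4% upstream of starts without a peak, and the part of base composition was not tested. TATAAA was less frequent just upstream of member starts and more frequent farther upstream. From 50 to 0 bp upstream of the start it was in 28 member starts (5.82%, 4.06 to 8.29) and in 14.2% (13.5 to 14.8) of starts without a peak. From 200 to 150 bp upstream the shares were 12.7% and 9.67%, and from 350 to 300 bp upstream 12.3% and 9.41%. In the summit windows TATAAA was in 25.9% of members, against 16.9% of the windows upstream of starts without a peak. These profiles are a description and were not tested, and a match is not a bound site.

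**Figure D5:**
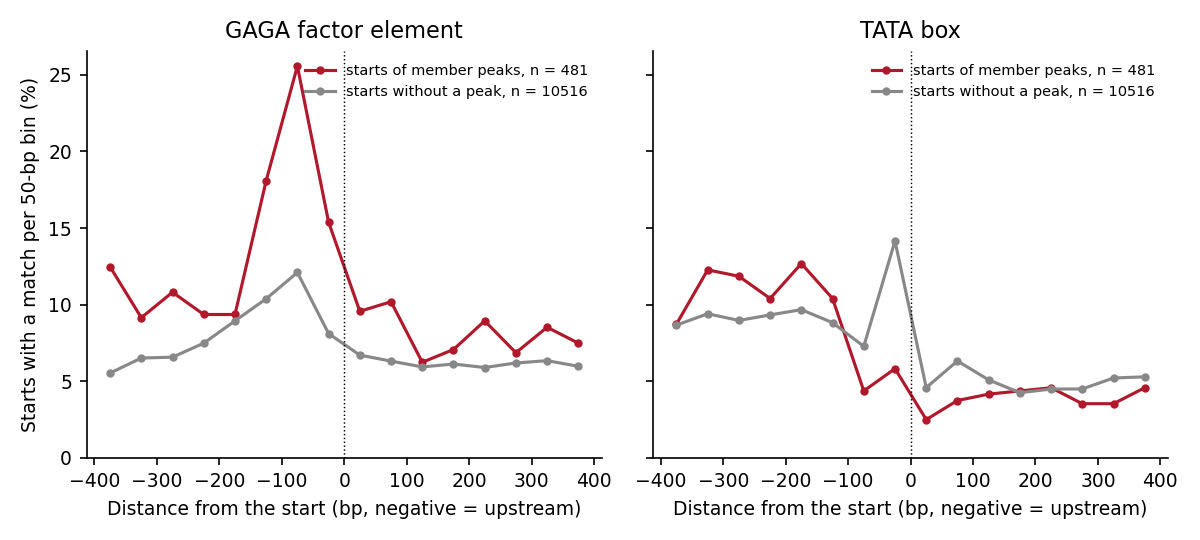
Share of starts with a match to GAGAG (left) or TATAAA (right) per 50-bp bin (y axis, percent) against distance from the start (x axis, bp, negative upstream), for 481 starts of members and 10516 unpaired starts without a conservative peak. For the GAGA factor element the line of the members is highest from 100 to 50 bp upstream, at 25.6%, and stands above the other in all 16 bins, and for the TATA box it lies below the other just upstream of the start and above it from 350 to 100 bp upstream.

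The starts of members differed in their surroundings from other unpaired starts. They lay inside another protein-coding gene in 10.6% of cases (interval 8.16 to 13.7), against 17.9% (17.2 to 18.6) of starts without a peak. The upstream neighbour was on the opposite strand in 35.8% (31.6 to 40.1) against 29.3% (28.4 to 30.2), and on the same strand in 53.6% against 52.8%. No start is in more than 1 of these classes, so fewer starts inside another gene leave more for the others. The median distance to the upstream neighbour on either strand was 2474 bp over 430 member starts, against 1870 bp over 8628 others. Starts inside another gene are left out of these medians. A non-coding transcript started head-to-head within the limit at 29 of 481 (6.03%, 4.23 to 8.53), against 4.36% (3.98 to 4.76). Genes with a single start made up 39.9% (35.6 to 44.4) of member starts and 52.9% (51.9 to 53.8) of the others. These intervals treat starts as independent, which starts of 1 gene are not.

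Of the 8087 autosomal protein-coding genes with an unpaired start 465 held a member, which is 5.75% (interval 5.26 to 6.28). Of 4269 genes with a paired start 405 held a divergent promoter peak, 9.49%. Gene groups are read below against the 5.75%, without a test, and their intervals are not adjusted for the 21 lists read. Among housekeeping groups, 4 of 35 cytosolic ribosomal protein genes with an unpaired start held a member (11.4%, interval 4.54 to 25.95). They were RpL23A with 144, RpL30 with 103, RpL27A with 92 and RpL11 with 66. Of 26 translation factor genes 4 did (15.4%, interval 6.15 to 33.5, which lies above the 5.75%). They were eIF6, eEF1gamma with 128, eIF2D with 75 and eEF1alpha1 with 72. The counts were 0 of 13 mitochondrial ribosomal protein genes, 0 of 23 proteasome subunits, 0 of 11 aminoacyl-tRNA synthetases and 0 of 41 respiratory chain and ATP synthase genes, and 1 of 30 small GTPase and vesicle transport genes, Rab5 with 168.5. Of 18 heat shock and chaperone genes 2 did, Hsp27 with a signal of 491 (258 and 231.5 in replicates 1 and 2) and Hsp26 with 117 (78.3 and 37.7).

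Tissue-specific structural and sensory genes held none. The count was 0 of 63 cuticle protein genes, which allows up to 4.76%, and 0 of 132 chemosensory receptor genes, which allows up to 2.27%. The upper 95% Wilson limits are 5.75% for cuticle and 2.83% for chemosensory genes, set beside the 5.75% of all genes with an unpaired start. Of 8 insulator and promoter factors 2 held a member (25%, interval 7.15 to 59.1), Trl with 188 and BEAF-32 with 90. The list of Polycomb and trithorax group genes had 0 of 11 (0 to 25.9%), and it does not include Trl, which also has trithorax group function.

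The lists of the nervous system, where Worniu is known to act, were short, and their shares had intervals that held the 5.75% of all genes. Of 21 neuroblast factors 2 held a member (9.52%, interval 2.65 to 28.9), grh, the transcription factor Grainyhead, with a signal of 83 (43.0 and 38.0 in replicates 1 and 2) and scrt, the Snail-related Scratch, with 74 (34.0 and 36.4), and scrt was in neither replicate list. Of 12 asymmetric division genes 1 did (8.33%, 1.49 to 35.4), numb, the Notch inhibitor passed to a single daughter cell, with 308 (179 and 139). The counts were 0 of 17 neuron differentiation genes (0 to 18.4%) and 1 of 9 glial genes (11.1%, 1.99 to 43.5), Gli with 229.5 (99.7 and 121). Of 13 cell cycle genes 2 did, Dp, the partner of E2F, with 235 and 150 on either side of 1 start, and CycE with 176.

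Mesoderm and signalling genes held members as well. Of 15 mesoderm and muscle genes 3 did (20%, interval 7.05 to 45.2). They were the heart homeobox gene tin with 305 (161 and 144 in replicates 1 and 2), the titin-like sls with 263 and the FGF receptor gene htl with 125. Of 13 Notch pathway genes 4 did (30.8%, interval 12.7 to 57.6). They were numb, E(spl)m3-HLH, a Notch target, with 241, the ubiquitin ligase gene neur with 89 and the coactivator gene mam with 82. The intervals of these short lists lay above the 5.75% of all genes with an unpaired start, and the difference was not tested. They are not adjusted for the 21 lists read, and numb is also on the list of asymmetric division genes. Of 12 EGFR and Ras genes 2 did (16.7%, interval 4.70 to 44.8), the ligand gene spi with 351 (209.5 and 141) and the secreted inhibitor gene aos with 171. Of 13 Wingless and Hedgehog genes 1 did (7.69%, interval 1.37 to 33.3), the Wingless inhibitor gene nkd with 144. In all, 13 of 21 lists had a member and 8 had none.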

How the data were processed

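Per the labels, chromatin of wor-eGFP embryos was sonicated, with fragments of 200 to 800 bp, immunoprecipitated with an anti-GFP antibody and placed on dm6. The sources used here name no aligner, peak caller or control. Each deposited list gives an authors' signal per peak, a summit, a capped score and, in ranked lists, a −log10 of the global IDR deposited per peak. Each thresholded list held only peaks with an IDR of at most 0.01. The depth per library is unknown, so intervals cover counting error over peaks only. Sequences were read from RefSeq Release 6 and genes from Ensembl release 115 (BDGP6 annotation 54). A peak was a member if every protein-coding start within 500 bp of its summit was unpaired. Replicate lists were shared at an overlap of at least 1 bp. Motifs were searched on both strands. Shares were compared by two-sided Fisher's exact tests with Benjamini-Hochberg adjustment and a threshold of 0.05, and differences carry 95% Newcombe intervals (scipy 1.17.1, pandas 2.3.3, numpy 2.4.6, python 3.11.15). The classification and tests were checked on simulated data. For a count of 0 the limit is 3 counts of the total. The members, motifs and lists were chosen with earlier results of these data known. Of the listed gene symbols 5 had no match. Named genes are those of the 20 strongest and 5 weakest members, of genes with several, at the limits of the rule, up to 4 per list, the strongest per motif and the 3 strongest in neither replicate list. REPTOR and PAPLA1 were chosen for their sequences. The labels do not say whether the 2 biological replicates came from separate collections. Alternatives were the second list of both replicates, each replicate alone, other limits on distance and pairs, the nearest start only, overlapping peaks kept, the stronger peaks only and a wider motif window.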

Additional observations from a re-analysis of the deposited data

How the results depend on the processing

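Over 171 repeats of 19 results, 148 counted as kept, since they stayed on their side of the threshold or within their limits. Direction was checked only where a difference passed the threshold in the main setting or in the repeat. A difference that passed in neither could change sign and still count as kept. For signal above the median, that from divergent promoters was −3.24 points in the main setting and 3.81 points without replicate 1. Some limits were wide. For mean G+C they were the SD over peaks on either side of the mean, 21.6 to 39.2%, which a mean could hardly leave. The 350 members without replicate 1, against 482, also counted as kept. With a start distance of 200 bp there were 233 members, 86.3% of summits were upstream, 2.83% of genes held a member, and members were above the median of the list more often than X one-directional promoter peaks by 18.3 points. With a head-to-head limit of 500 bp members were lower than divergent promoter peaks, by −11.1 points for signal above the median and −7.92 points for both replicate lists. With a limit of 2000 bp 1 motif was called against divergent promoters. With the peaks above the median signal only there were 312 members, 3.73% of genes held one, and the difference from peaks away from starts in both replicate lists was 3.25 points and not called. Leaving out each replicate gave 4.22% to 4.96% of genes and 0 to 1 motifs called against divergent promoters, which without replicate 2 was the Twist-type E-box. In the motif window of 100 bp 5 motifs were called against divergent promoters and 1 against peaks away from starts, and the DRE difference from divergent promoters turned from 0.34 to −5.82 points. The cause of these shifts was not tested. Not all of them came with smaller sets of peaks. The head-to-head limit of 500 bp gave 559 members against 482 in the main setting, and the wider motif window used the same members. No paired analysis was possible because there is 1 group. Repeats for G+C and single motifs were chosen after seeing the data. With the depth unknown, an absent peak is not an absent binding site.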
